A study of Homo sapiens with 6 samples.

Results

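The MYC network, together with the PVT1 locus downstream of MYC, was examined for chromatin accessibility in HLF, a long-established line of human liver cancer cells. The members were 8 genes, MYC, PVT1, MYCN, MYCL, MAX, MXD1, MNT and MGA. A site belonged to them if its centre lay within 1 kb of any start of a member, in its gene body or within 50 kb of it, or in a window on chromosome 8 from 500 kb before MYC to 2 Mb after it. This rule took 187 of the 166021 sites of the series, of which 104 lay in the MYC window and 57 of the 187 were found in every one of the 6 libraries. The assay was ATAC-seq, in which the Tn5 transposase tags open DNA, and stretches rich in tagged fragments become peaks. HLF cells received 5 µM SNDX-5613, an inhibitor of the contact between menin and MLL1, or the vehicle DMSO, with 3 libraries in each group. No difference in batch is recorded among these libraries. The labels put the treatment at 24 h and the study's methods describe a longer one, so its duration is uncertain. All libraries came from the same cell line. The study describes a replicate as 1 dish of cells that was divided between treatment and control, but the labels do not say which libraries shared a dish, so that p-values measure the spread between these libraries.

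MYC is a transcription factor that drives growth and cell division and is often raised in liver cancer. It binds DNA at E-boxes as a pair with MAX, and MYCN and MYCL are its paralogs. MXD1, MNT and MGA also pair with MAX and act as repressors at the same kind of sequence, so the network balances activators against antagonists. PVT1 is a long noncoding RNA gene next to MYC, whose body holds enhancers of the region, and gains of the segment that holds MYC and PVT1 are common in cancer.

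The libraries were unequal in depth, and this bears on each count of sites. The peak lists held 88026, 113675 and 96392 regions in DMSO replicates 1 to 3 and 107347, 96910 and 40568 in SNDX-5613 replicates 1 to 3. The genome-wide background of SNDX-5613 replicate 3 was 16.2% of the median of the other 5 libraries, so a site absent from it may lie below its detection limit. Levels are therefore given as percentiles of −log10 p among the 33405 sites shared by all 6 libraries, where 100 is the strongest site of a library, and read numbers were not used here. With 3 libraries against 3, the smallest p of the exact permutation test is 0.1, so a site was called higher or lower where the ranges of the groups did not overlap. Of all 33405 sites, 8.54% were called higher and 8.08% lower in SNDX-5613. The promoters of ALB, APOA1 and HNF4A, markers of hepatocytes, had no peak in any library, and that of TTR had one in 5 libraries and that of SERPINA1 in 2. VIM and ZEB1, mesenchymal markers, and GAPDH and ACTB, genes of all cells, had a peak at the promoter in each of the 6, AFP had one in 5, and the blood marker PTPRC had none.

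Promoter sites were searched for the E-box CACGTG, the letters that MYC-MAX and MXD-MAX pairs recognise, and for CCAAT, those of NF-Y, on both strands up to 100 bp from the summit. An E-box was present in that span at 3 of 14 member promoter sites found in all 6 libraries (21.4%), against 7.79% of the 14741 promoter sites found in all 6 libraries. The 14 sites are few and some share a gene, so 3 is too small a count to read as an excess. No E-box was found at the 36 sites of the MYC window found in all 6 libraries, while 5.46% of all 33405 sites and 3.62% of the 18664 outside promoters held one. With 36 sites, finding none is not far from either share. CCAAT was found in 4 of the 14 sites, or 28.6%, beside 31.5% of promoter sites. These are matches of letters, and binding was not measured.

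MYC had 3 promoter sites, and the pair found in all libraries ranked higher in SNDX-5613. The strongest, chr8:127735866-127736479, was centred 738 bp after the first start of the gene, in an exon. Its percentiles were 45.9, 52.5 and 49.1 in DMSO and 58.6, 56.0 and 60.9 in SNDX-5613. All 3 treated libraries lay above all 3 controls, with a mean difference of 9.31 percentile points (exact permutation test, two-sided p = 0.1, n = 3 per group). The site at the start itself, chr8:127735188-127735637, had percentiles of 34.3, 41.4 and 49.97 in DMSO and 57.8, 52.5 and 51.6 in SNDX-5613, a mean difference of 12.09 points (exact permutation test, p = 0.1). Here the groups were apart by a narrow margin, between DMSO replicate 3 and SNDX-5613 replicate 3. These sites lie less than 1 kb from each other and are not independent. The site 2490 bp into the gene was found in 5 libraries, all but SNDX-5613 replicate 3. It stood at 56.1, 63.6 and 56.7 in DMSO and at 52.6 and 54.9 in SNDX-5613 as percentiles of each library's own list. On that scale, which differs from the one used above, both treated libraries with the site lay below all 3 controls.

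The rise at the strongest MYC promoter site was 5.68 points without SNDX-5613 replicate 3 and 7.56 to 10.96 points without each of the others. Groups apart in 6 libraries can hardly overlap once 1 is left out, so their separation there adds no support. When sites were ranked by fold enrichment the rise was 11.7 points, with groups apart. It did not hold for percentiles in each library's own list, where the difference was −1.94 points and the groups overlapped (exact permutation test, p = 0.9). Own lists differ in length and the list of SNDX-5613 replicate 3 is the shortest. When each list was cut to the same number of top regions the difference was 9.63 points, with groups again apart.

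The MYC promoter lay in a stretch of high background, and it stood higher by pileup than by −log10 p. Each summit's fold and p were solved for the whole-number pileup, the stack of fragments at the summit, and the local background it was tested against. At the strongest MYC site the pileup was 107, 157 and 143 fragments in DMSO and 149, 149 and 25 in SNDX-5613. The local background there was 18.1, 18.5 and 17.4 times the genome-wide background in DMSO and 17.0, 16.3 and 14.9 times in SNDX-5613. That background stood above 92.6% to 95.7% of promoter sites in each library. Ranked by pileup alone, the site stood at 72.2, 75.6 and 73.7 in DMSO and 79.3, 78.2 and 78.9 in SNDX-5613, far above its percentiles by p. Groups did not overlap by pileup either, where 9.89% of all sites were called higher and 9.57% lower. The local background at the site was lower in all 3 treated libraries, with a mean difference of −1.96 genome backgrounds (exact permutation test, p = 0.1). A lower local background in SNDX-5613 was common, at 30.5% of all sites, against 12.3% with a higher one.

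**Figure D1:**
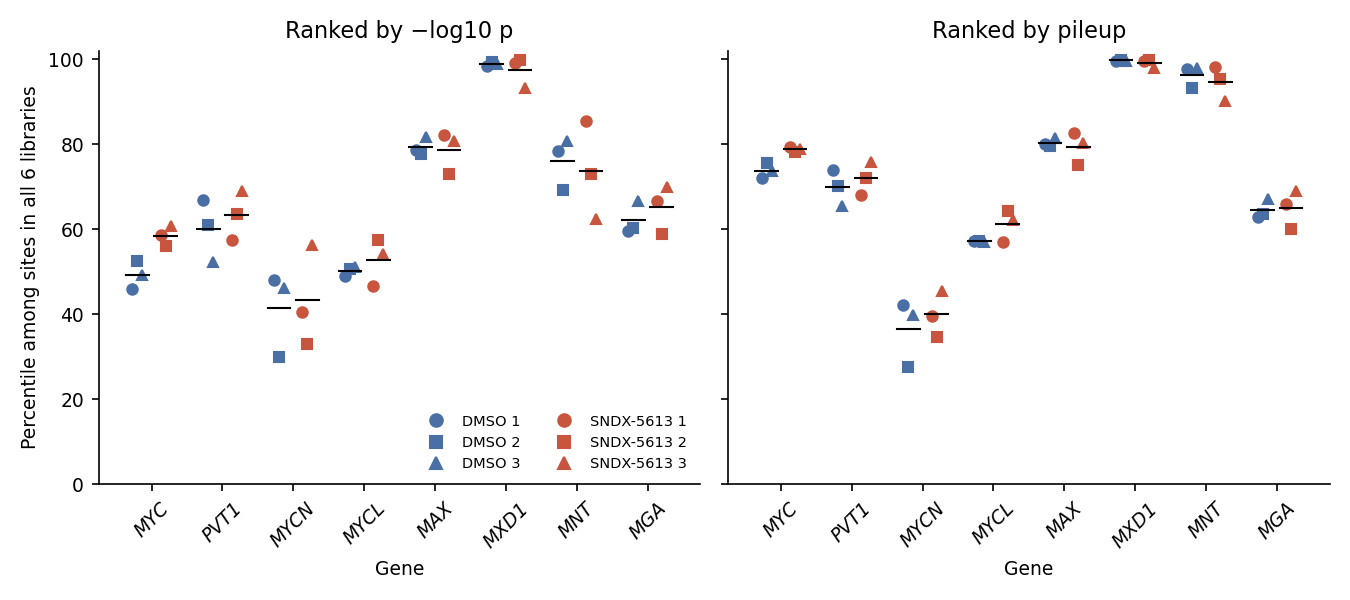
Percentile of the strongest promoter site of each of the 8 genes among the 33405 sites found in all 6 libraries, ranked by −log10 p on the left and by pileup on the right. Points are libraries and bars are group means. MXD1 lies near the top on both scales, and MYC is the one gene whose groups do not overlap. MYC and MNT stand much higher by pileup than by −log10 p, and PVT1 and MYCL do so to a lesser degree.

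PVT1 had 132 distinct starts over 190 transcripts in the annotation, so that 9 of its sites counted as promoter sites. The gene start, chr8:127793796-127795153, was at 31.4, 36.2 and 46.7 in DMSO and 25.7, 37.4 and 26.4 in SNDX-5613. The groups overlapped, with a mean difference of −8.30 points (exact permutation test, p = 0.3). The strongest promoter site, chr8:127853893-127854766, lay in an intron 59803 bp into the gene. Its percentiles were 66.8, 61.0 and 52.4 in DMSO and 57.6, 63.6 and 69.1 in SNDX-5613, which also overlapped (exact permutation test, p = 0.6). None of the 3 PVT1 promoter sites found in all 6 libraries was called, and the other 6 could not be ranked this way.

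The paralogs MYCN and MYCL ranked in the middle of all shared sites. MYCN, a gene used in neural and embryonic tissue, had its site upstream of the start at chr2:15939629-15940126, with percentiles of 48.2, 29.97 and 46.2 in DMSO and 40.5, 33.1 and 56.3 in SNDX-5613. MYCL, at chr1:39901418-39902506, stood at 48.9, 50.7 and 51.2 in DMSO and at 46.7, 57.6 and 54.1 in SNDX-5613. Neither gene's groups were apart (exact permutation tests, p = 0.9 and p = 0.5). MAX, the shared partner, had 1 strong site upstream of its start, chr14:65102327-65103312, at 78.6, 77.8 and 81.8 in DMSO and 82.3, 73.0 and 80.7 in SNDX-5613 (exact permutation test, p = 0.9).

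The antagonists were open in all libraries and their groups overlapped at each promoter site found in all 6. MXD1, at chr2:69914285-69915235, was the strongest member at 98.5, 99.4 and 98.9 in DMSO and 99.1, 99.7 and 93.4 in SNDX-5613. It lies 17072 bp into the gene as GENCODE draws it and holds the start that RefSeq gives. MNT had 4 promoter sites, 3 of them in all 6 libraries. The strongest, chr17:2399539-2400180, was at 78.4, 69.4 and 80.7 in DMSO and 85.5, 72.9 and 62.5 in SNDX-5613. Its local background was 29.1 to 35.0 times the genome-wide one, the highest among the strongest promoter sites of the 8 members, and by pileup it stood at 90.3 to 98.1. MGA had 2 promoter sites in all libraries, both at starts that RefSeq gives. That at chr15:41621058-41622229 was at 53.0, 56.9 and 61.8 in DMSO and 63.6, 63.1 and 60.2 in SNDX-5613. The other, chr15:41660139-41660953, was at 59.6, 60.2 and 66.7 in DMSO and 66.7, 58.9 and 69.9 in SNDX-5613. The exact permutation p-values of the strongest sites were 0.9 for MXD1, 0.8 for MNT and 0.6 for MGA.

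Around MYCN, more sites had a peak after SNDX-5613, while mean counts at the other members were lower. Those means include the shallow SNDX-5613 replicate 3. At MYCL, MAX, MXD1 and MNT that library alone lay below all controls. Within 50 kb of MYCN there was 1 site in each DMSO library and there were 6, 4 and 2 sites in SNDX-5613 replicates 1 to 3. The groups were apart with a mean difference of 3.00 sites (exact permutation test, p = 0.1), a pattern that 0.25% of 19626 protein-coding genes with a site showed. The pattern requires more sites in the shallow SNDX-5613 replicate 3 than in every control. Depth therefore bears on this share, as it does on the share in the other direction. MYCN was picked out after its counts were seen. The 8 added sites were weak, with summit pileups of 3 to 19 fragments, and 7 of them occurred in 1 library only. The exception, chr2:15912232-15912542, lay at −28163 bp from the MYCN start and was found in SNDX-5613 replicates 1 and 2. With a stricter threshold of −log10 q of at least 3 the difference was 1.33 sites and the groups overlapped, and with equal numbers of top regions it was 0.333 sites. MGA went the other way, with 10, 13 and 11 sites in DMSO and 9, 9 and 5 in SNDX-5613, a separation that 4.82% of genes showed in this direction. The counts of the other 6 members overlapped between groups.

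**Figure D2:**
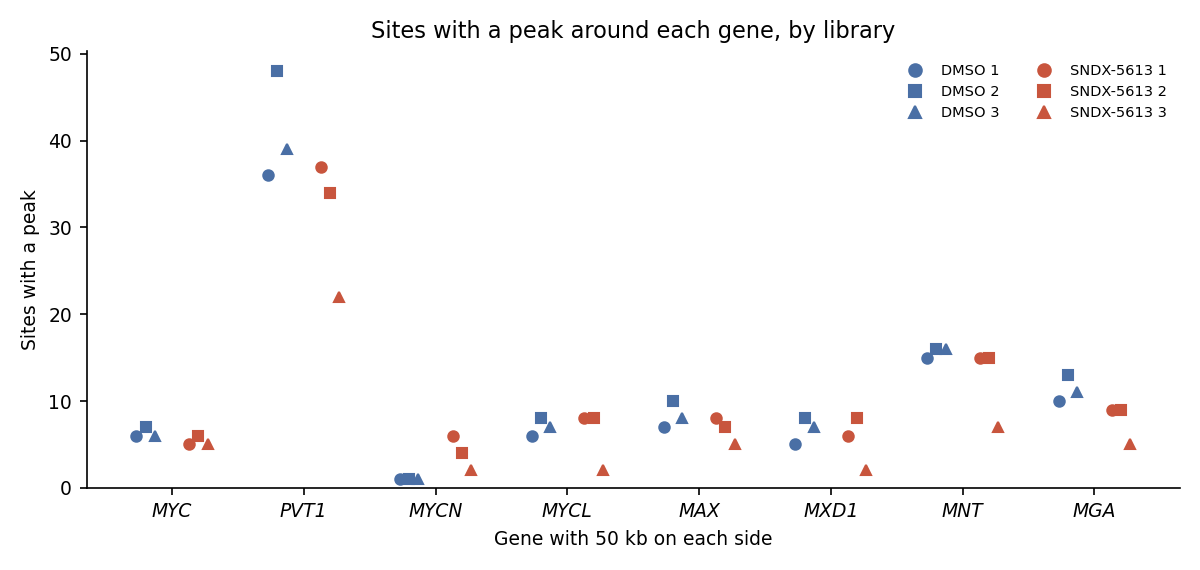
Number of sites with a peak in the gene and the 50 kb on each side of it, for the 8 genes. Points are libraries, with shape for the replicate and colour for the group. PVT1 holds the most sites, SNDX-5613 replicate 3 is lowest or tied for lowest at all genes but MYCN, and MYCN has 1 site in each DMSO library.

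The MYC window held 104 sites over 2.51 Mb, with 71, 86 and 72 of them found in DMSO and 71, 66 and 40 in SNDX-5613. The PVT1 body was the dense part. It held 57 sites, or 145 per Mb, against 22.2 per Mb in the rest of the window and 53.8 per Mb over chromosomes 1 to 22, X and Y. Sites found in all 6 libraries numbered 18 in PVT1, or 45.9 per Mb. Among 1964 genes of 200 to 800 kb, the median was 4.77 per Mb and 7 genes had more than PVT1. Long stretches past PVT1 were sparse, with 7 sites from 500 to 750 kb after the MYC start, 4 from 750 to 1000 kb and none from 1250 to 1500 kb. Sites returned near CCDC26, a long noncoding RNA gene, with 17 from 1750 to 2000 kb.

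The share of all regions that fell in the window did not separate the groups. It was 8.29, 8.01 and 7.88 per 10000 regions in DMSO and 6.99, 7.02 and 10.1 in SNDX-5613 (exact permutation test, p = 1.0). In the PVT1 body the share was 4.09, 4.57 and 4.36 per 10000 in DMSO and 3.63, 3.61 and 5.42 in SNDX-5613 (p = 1.0 by the same exact test). SNDX-5613 replicate 3 decided both values. Without it, the treated libraries were below all controls, with mean differences of −1.06 per 10000 in the window and −0.718 per 10000 in PVT1 (exact permutation tests, p = 0.1, the smallest that 2 against 3 allows). At equal numbers of top regions, the window held 29, 29 and 30 regions in DMSO and 33, 30 and 41 in SNDX-5613, so the sign of the difference turned.

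**Figure D3:**
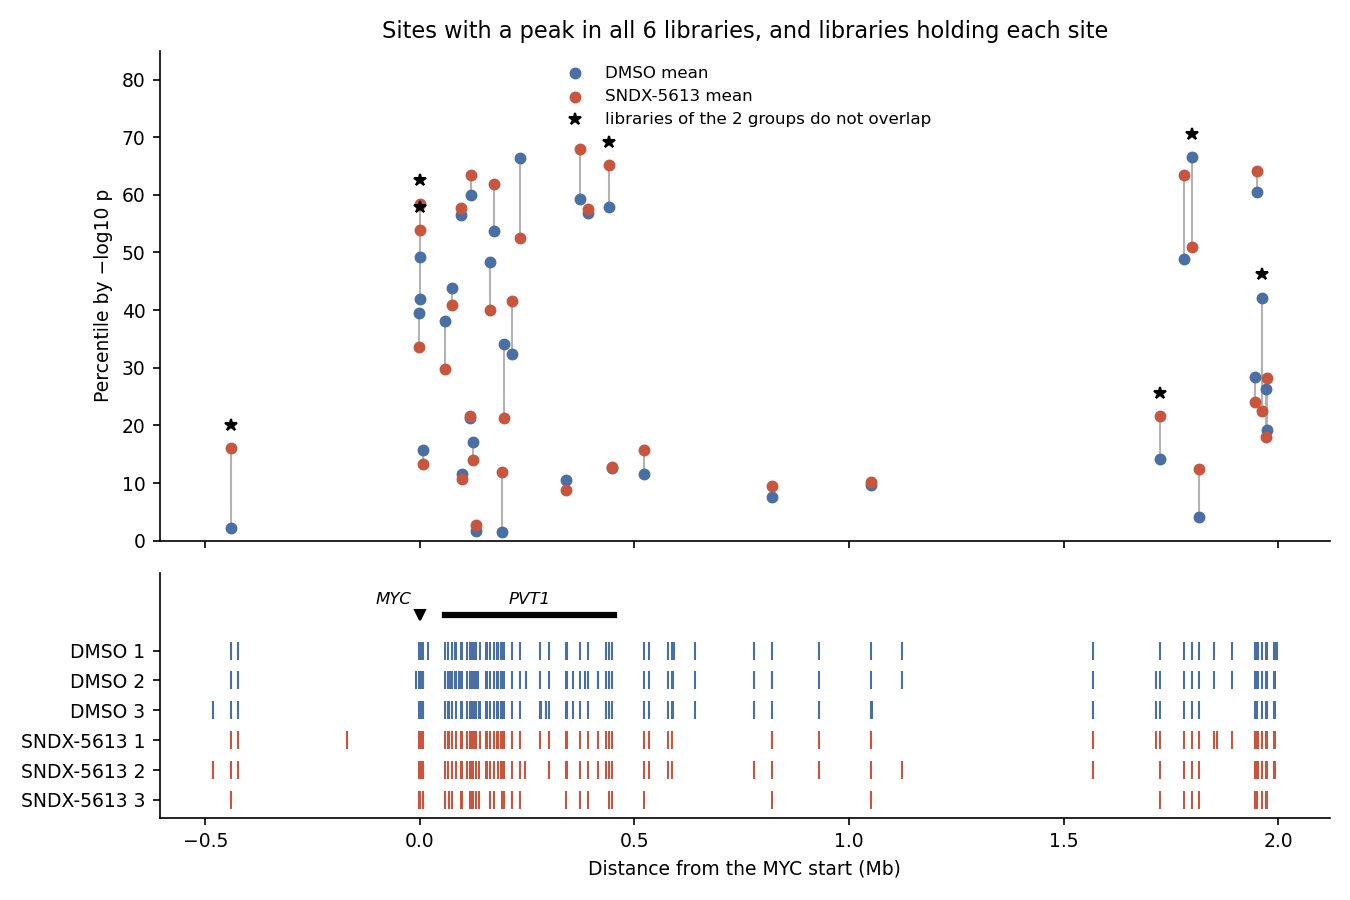
Sites of the MYC window by distance from the MYC start in Mb. The upper panel gives the mean percentile by −log10 p in each group at the 36 sites found in all 6 libraries, with a star where the groups' libraries do not overlap, and the lower panel marks each site in each library that had a peak there. Sites crowd within PVT1, and 7 sites carry a star.

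Among the 36 sites of the window found in all libraries, 5 ranked higher and 2 lower in SNDX-5613, where 8.54% and 8.08% of all sites did. Without SNDX-5613 replicate 3 the counts were 10 and 6, but a call then needs fewer libraries and is reached more easily. Where a region had to cover 50% of a site, the counts were 1 and 0. Shares over all sites under these 2 settings are not given here, so these counts cannot be set against the main shares. Taken by replicate number, all 3 differences were positive at 9 of the 36 (25.0%, against 16.2% of all sites) and negative at 4 (11.1%, against 16.5%). Over all 57 member sites of that kind, 6 ranked higher (10.5%, against 8.54% of all sites) and 4 lower (7.02%, against 8.08%), shares close to those of the whole series. Outside the window, these were a site within MAX and a site at −11728 bp from the MNT start, next to METTL16, that ranked lower, and a site just past MGA, next to MAPKBP1, that ranked higher. No site of the 187 was gained, that is, with a peak in all treated and no control library, and 3 were lost, or 1.6%. Over all sites 0.147% were gained and 1.18% lost. The lost site of the MYC window lay 641.7 kb after the MYC start, at chr8:128377063-128377213, and was weak, at 9.29, 25.4 and 21.0 in the DMSO libraries' own lists. The other 2 lost sites were near MGA, 1 at its end and 1 beside TYRO3. Both overlapped a region of the study's SNDX-5613 consensus set, and the lost site of the MYC window did not.

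The strongest sites of the window outside the MYC and PVT1 promoters were 4 in the PVT1 body, 1 in the CCDC26 body, at 1800.5 kb, and 1 beside CCDC26. The highest lay 373.8 kb after the MYC start, with percentiles of 51.8, 64.7 and 61.3 in DMSO and 75.8, 60.2 and 68.0 in SNDX-5613. The site at 441.6 kb, near the end of PVT1, stood at 59.3, 60.9 and 53.7 in DMSO and 65.6, 64.9 and 65.0 in SNDX-5613. It was the one PVT1 site whose groups were apart, with a mean difference of 7.25 points (exact permutation test, p = 0.1) and of 4.58 points without SNDX-5613 replicate 3. The site at 172.4 kb ranked 44.6, 60.5 and 56.2 in DMSO and 57.5, 66.6 and 61.7 in SNDX-5613, with overlap, though by replicate number it was higher by 12.9, 6.05 and 5.47 points. The site at 234.3 kb had one of the largest falls, from 67.3, 60.2 and 71.6 in DMSO to 63.3, 28.0 and 66.2 in SNDX-5613. The groups overlapped, and by replicate number the differences were −3.99, −32.2 and −5.37 points, the largest in replicate 2. At 1950.4 kb, beside CCDC26, the site stood at 53.3, 59.5 and 68.5 in DMSO and 68.3, 64.5 and 59.5 in SNDX-5613.

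Of the called falls of the window, that at 1800.5 kb lay in the CCDC26 body and that at 1961.9 kb next to the gene. The CCDC26 body also held 1 called rise, 1724709 bp after the MYC start, with a mean difference of 7.47 points (exact permutation test, p = 0.1). The site at 1961.9 kb went from 47.5, 39.5 and 39.6 in DMSO to 32.9, 25.9 and 8.86 in SNDX-5613, a mean difference of −19.63 points. The site at 1800.5 kb went from 69.3, 64.5 and 65.7 to 59.8, 55.5 and 37.4, a mean difference of −15.63 points. In both, all treated libraries lay below all controls and SNDX-5613 replicate 3 was the lowest (exact permutation tests, p = 0.1). Without that library the falls were smaller, −10.27 points at 1961.9 kb and −5.25 points at 1800.5 kb, and the groups, already apart, could hardly overlap. The neighbouring site at 1780.4 kb had a mean difference of 14.64 points in the other direction, at 42.7, 46.5 and 57.4 in DMSO and 51.2, 65.8 and 73.5 in SNDX-5613, with overlap. By replicate number its differences were 8.58, 19.2 and 16.1 points, and with 3 pairs the smallest exact sign-flip p is 0.25. Before MYC, the site at −440.5 kb, near PCAT1, was weak and higher in all treated libraries, at 1.497, 2.70 and 2.196 in DMSO and 14.2, 4.77 and 29.4 in SNDX-5613 (exact permutation test, p = 0.1).

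Local background was high at MYC, lower over PVT1 and near the genome-wide level in CCDC26, and it was uneven between them. Its median over the PVT1 body was 3.14 to 3.86 times the genome-wide background in the 6 libraries, and in the CCDC26 body it was 1.00 to 1.17 times. Sites from 1750 to 2000 kb after the MYC start, which include those beside CCDC26, had medians of 1.79 to 2.96 times. Over all summits of the window the median was 3.91, 3.38 and 3.81 times in DMSO and 3.24, 3.40 and 3.76 times in SNDX-5613, which overlapped (exact permutation test, p = 0.3). At individual sites, the ratio was lower in SNDX-5613 at 26 of 57 member sites (45.6%, against 30.5% of all sites) and higher at 6 (10.5%, against 12.3%). In the PVT1 body 12 of 18 sites had a lower ratio, neighbours that share the same stretch of background.

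**Figure D4:**
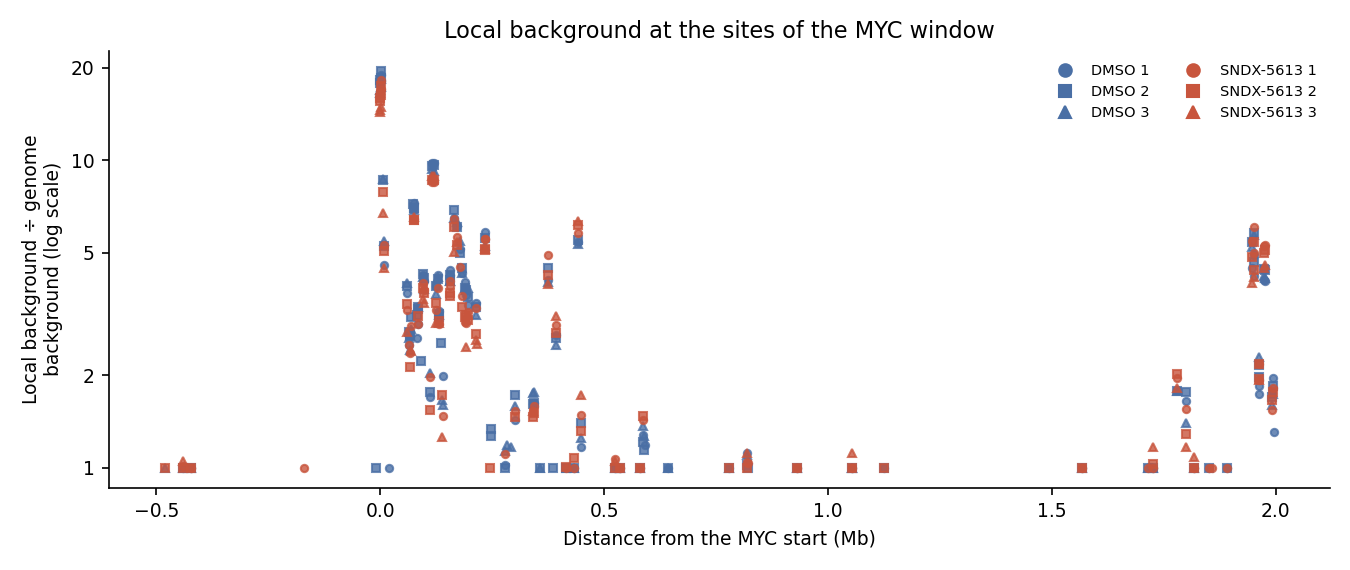
Local background at the strongest summit of each site of the MYC window, as a multiple of the genome-wide background of the library on a log axis, by distance from the MYC start in Mb. Points are the 6 libraries. The MYC promoter reaches 14.6 to 19.6 times in the 6 libraries, sites in PVT1 lie between 1 and 10 times, and sites from 500 to 1750 kb have medians of 1.00 to 1.17 per 250 kb.

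Other genes of the network were open at their promoters in nearly all cases. Of 23 partners, cofactors and turnover genes outside the members, 22 had one promoter site in common to the 6 libraries, and 1 of these ranked higher and 1 lower, where 7.39% and 8.13% of promoter sites did. MXD3, an MXD1 paralog, ranked lower, with mean percentiles of 60.6 in DMSO and 46.5 in SNDX-5613 (exact permutation test, p = 0.1, n = 3 per group). FBXW7, the ubiquitin ligase subunit that marks MYC for decay, ranked higher, at 98.4 in DMSO and 99.4 in SNDX-5613 (exact permutation test, p = 0.1). Ranked by pileup, FBXW7 was not apart. MLXIPL, a glucose-responsive relative, had a promoter peak in 5 libraries. The median difference over the 22 genes was 0.174 points, against −0.449 points over all 14741 promoter sites.

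Of 14 classic MYC target genes, such as NCL and ODC1, 13 had a peak at the promoter in each of the 6 and none ranked apart between groups. The median difference was −0.870 points, and 1 of the 13 had a higher mean in SNDX-5613, where the median over all promoter sites was −0.449 points and 6712 of 14741 (45.5%) had a higher mean. By pileup, NOP56, a nucleolar protein gene, ranked lower, from a mean of 98.9 in DMSO to 98.3 in SNDX-5613 (exact permutation test, p = 0.1), as did 9.13% of promoter sites. CCND2, a D-type cyclin gene, had a promoter peak in 1 library. Among the neighbours of MYC, 14 of 16 names were found in the annotation, and CCAT1 and CASC21 were not. CASC11, CASC19, PCAT1 and CCDC26 had a peak at the promoter in each of the 6 and none ranked apart by −log10 p. By pileup, PCAT1 ranked higher, from a mean of 63.1 in DMSO to 69.8 in SNDX-5613 (exact permutation test, p = 0.1), as did 8.36% of promoter sites. POU5F1B, CASC8, PRNCR1, LINC00824 and MIR1204 to MIR1207 had no promoter peak in any library, GSDMC had one in 1 library and MIR1208 in 3.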

How the data were processed

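ATAC-seq peak lists of 6 HLF libraries were used, 3 with DMSO and 3 with SNDX-5613, grouped by the labels. Per the labels and the study's methods, the authors trimmed reads with Trim Galore 0.6.7, aligned them to hg38 with Bowtie2 2.3.4.1, marked duplicates with Picard 2.20.0 and called peaks in each library, with group consensus sets by RMSPC. For a related assay that shared the pipeline, the methods give MACS2 with summit calling and a q-value threshold of 0.05. The MACS2 version, the settings used for ATAC-seq, a Tn5 shift and duplicate removal are not given in the sources used here. The deposited lists give a fold ratio over local background, −log10 p and −log10 q for each summit. A score column and the deposited consensus sets, with a −log10 p, were left out of all tests.

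Summits that shared a region were merged, and regions overlapping by 1 bp were joined into sites (Python 3.11.15, SciPy 1.17.1, pandas 2.3.3, GENCODE release 44, chromosomes 1 to 22, X and Y). Pileup and background were solved from fold and p for 100% of summits to within 0.001 on −log10 p. Background within 0.5% of the genome-wide value was set to it. Depth was not given as read numbers, and no intervals were drawn. Group means were set against each other in exact permutation tests (two-sided), and the pipeline was tested on simulated data. MYC, PVT1, MYCN, MYCL, MAX, MXD1, MNT and MGA were named with their promoter sites. In the MYC window the 6 strongest sites, lost sites, the 3 largest changes each way and a further called rise were named. Listed network genes were named where their groups were apart or a peak was missing. RefSeq starts were matched for 6 of the 8 members by symbol. Results for 1 further marker gene and the sequences of promoter sites are not reported here. The members and lists were chosen with earlier results of these data known. Ranks by pileup, the local background at MYC, the counts around MYCN, the called window sites without each library and the differences by replicate number were added after seeing the data. Alternatives were a stricter threshold, ranking by fold, own-list percentiles, equal numbers of regions, coverage of 50% of a site, fixed windows of 250 bp on each side of summits, leaving out each library, and a replicate block.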

Additional observations from a re-analysis of the deposited data

How the results depend on the processing

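The rank change at the strongest MYC promoter site kept its direction in all alternatives run but own-list percentiles, at −1.94 points. Under own-list percentiles PVT1 (−3.40), MYCN (−5.72), MYCL (−5.75) and MGA (−3.47) also changed sign, and ranking by fold gave −12.26 for MYCN, 6.12 for MAX, 11.05 for MXD1, with its groups apart, and 4.67 for MNT. None of these differences but that of MYC was called in the main comparison. Leaving out 1 library gave −3.90 to 6.90 points for MYCN, −0.435 to 6.67 for PVT1, −2.48 to 2.11 for MAX, −2.68 to 0.278 for MXD1 and −8.44 to 1.71 for MNT, so that each changed sign. It separated the groups at MYCL without SNDX-5613 replicate 1 (5.53) and at MGA without SNDX-5613 replicate 2 (6.09).

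The difference in the window's share turned to 0.0935 per 10000 at the stricter threshold and 1.32 at equal numbers, and in PVT1 to 0.133 and 0.493. Without 1 library it ranged from −1.06 to 0.501 in the window and from −0.718 to 0.188 in PVT1, and the window's local background from −0.396 to −0.120. Lost sites numbered 0 at the stricter threshold, 0 at equal numbers, where 2 were gained, and 2 under 50% coverage. Without 1 library they ran from 1 to 6, with 3 without DMSO replicate 1, 2 without DMSO replicate 3, 6 without SNDX-5613 replicate 1 and 2 without SNDX-5613 replicate 2, and gained sites from 0 to 1. Sites ranked higher numbered 1 and lower 0 under 50% coverage, and 5 to 10 and 2 to 6 without 1 library. Higher and lower numbered 9 and 5 without DMSO replicate 2, 8 and 2 without DMSO replicate 3, 8 and 4 without SNDX-5613 replicate 1, 7 and 4 without SNDX-5613 replicate 2, and 10 and 6 without SNDX-5613 replicate 3. Without 1 library a call needs fewer libraries and is reached more easily. No shares over all sites are given for these settings, so these counts cannot be set against the main shares. The cause of these shifts was not tested.

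The study states that a replicate was 1 dish divided between treatments, but no source ties the libraries' numbers to dishes. Departures from the group mean at each site, rather than the levels themselves, were correlated over sites between the groups' libraries. Same-numbered libraries had correlations of 5.9e-05 to 0.0313 and the other pairs −0.0652 to 0.0391, so these values single out no pairing. With the replicate block the mean differences were the same by construction, −0.0243 per 10000 in the window, −0.118 in PVT1 and −0.235 for local background, and the smallest sign-flip p is 0.25. Differences by replicate number are given beside the window sites. Of the 104 window sites, 17 were found in all libraries but SNDX-5613 replicate 3, and 24 in 1 library only.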
